A study of Mus musculus with 6 samples.

Results

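The genes described here make the apparatus that takes nascent proteins into the endoplasmic reticulum (ER) and attaches N-linked sugars to them. They were chosen by gene symbol alone: the signal recognition particle and its receptor, the Sec61 channel with Sec62 and Sec63, the translocon-associated protein (TRAP) complex, signal peptidase, oligosaccharyltransferase, the enzymes that assemble the lipid-linked oligosaccharide, the ER enzymes that trim glucose or check folding, and the Golgi N-acetylglucosaminyltransferases. The symbols took 64 of the 17710 genes listed in any library, and 61 of the 64 were listed in all 6 libraries. Bulk RNA was sequenced from 2 kinds of feeder-free mouse cell line under normal conditions. The 3 embryonic stem (ES) libraries, named A, B and C, came from cells of strain 129/Ola grown on 0.1% gelatin in N2B27-2iLIF, a serum-free medium with inhibitors and leukaemia inhibitory factor. The 3 extraembryonic endoderm (XEN) libraries, also A, B and C, came from cells of strain ICR grown in RPMI1640 with 15% fetal bovine serum. Strain, medium and cell type changed together, so their parts in any difference cannot be told apart. Nothing in the labels tells whether libraries A, B and C were separate cultures, and p-values here therefore cover the variation between 3 libraries that could be technical.

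Proteins bound for secretion or for membranes carry a signal sequence, which the signal recognition particle binds as it leaves the ribosome and delivers to the Sec61 channel. Signal peptidase removes that sequence while oligosaccharyltransferase moves a branched sugar, built beforehand on the lipid dolichol, onto asparagine residues. Glucose is then trimmed in the ER as the protein folds, and the Golgi rebuilds the glycan into branched forms. XEN cells are lines of the extraembryonic endoderm, a lineage known for secreting basement membrane and serum-type proteins.

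Depth was even, at 20675311 to 22375875 expected counts in a library. The 6 pluripotency markers (Pou5f1, Nanog, Sox2, Esrrb, Zfp42 and Tdgf1) summed to 4437 to 4537 CPM (counts scaled to a common library size) in ES libraries and to 1.35 to 1.89 CPM in XEN libraries. The 6 endoderm markers (Gata4, Gata6, Sox17, Sox7, Pdgfra and Dab2) summed to 4.66 to 5.39 CPM in ES and to 4960 to 5274 CPM in XEN libraries, so each group carried the defining genes of its label. Of the lists for other cells, 5 of 6 fibroblast markers were listed, at 2.86 to 3.43 CPM in ES and 0.447 to 0.606 in XEN. The 6 trophoblast markers summed to 82.2 to 85.7 and 7.85 to 9.42 CPM, and the 4 listed blood markers of 5 to 20.5 to 22.8 and 1.82 to 2.40 CPM. In ES libraries most of these sums came from single genes. They were Thy1 (mean 2.85 CPM) of the fibroblast list, Tfap2c and Eomes (58.7 and 22.2) of the trophoblast list, and Cd68 (19.8) of the blood list. The trophoblast marker Cdx2 went the other way, from a mean of 0.148 CPM in ES to 0.840 CPM in XEN libraries. The sums moved with the groups, and their part in the results was not tested.

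Of the 64 members, 61 passed the filter for low counts and entered the edgeR quasi-likelihood test (Benjamini-Hochberg over 13581 genes). At an adjusted p under 0.05, 52 were higher in XEN cells and 6 were lower. Over all tested genes, 42% were higher and 46.7% were lower by the same test. The counts of each role group below are to be read against these shares. The median log2 fold change, XEN over ES, was 0.84 over the tested members and -0.07 over all tested genes. Tested against a 2-fold change, 25 members were higher and 5 were lower, where 19.3% and 23.4% of all tested genes were. All 3 XEN libraries lay above all 3 ES libraries for 52 members and below them for 7, against 42.4% and 47% of all tested genes. The members that were lower were Alg13, Srp9, Mgat5b, Mgat3, Mgat5 and Dpm1. Srp9 was lower as deposited, but higher once summed with an unnamed model of the same orthology term (log2 fold change 0.21). Srp54a, Srp72 and Alg11 did not pass the test, with adjusted p of 0.314, 0.105 and 0.0526 by edgeR. In bulk RNA, fewer cells of a type and less RNA per cell cannot be told apart.

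**Figure D1:**
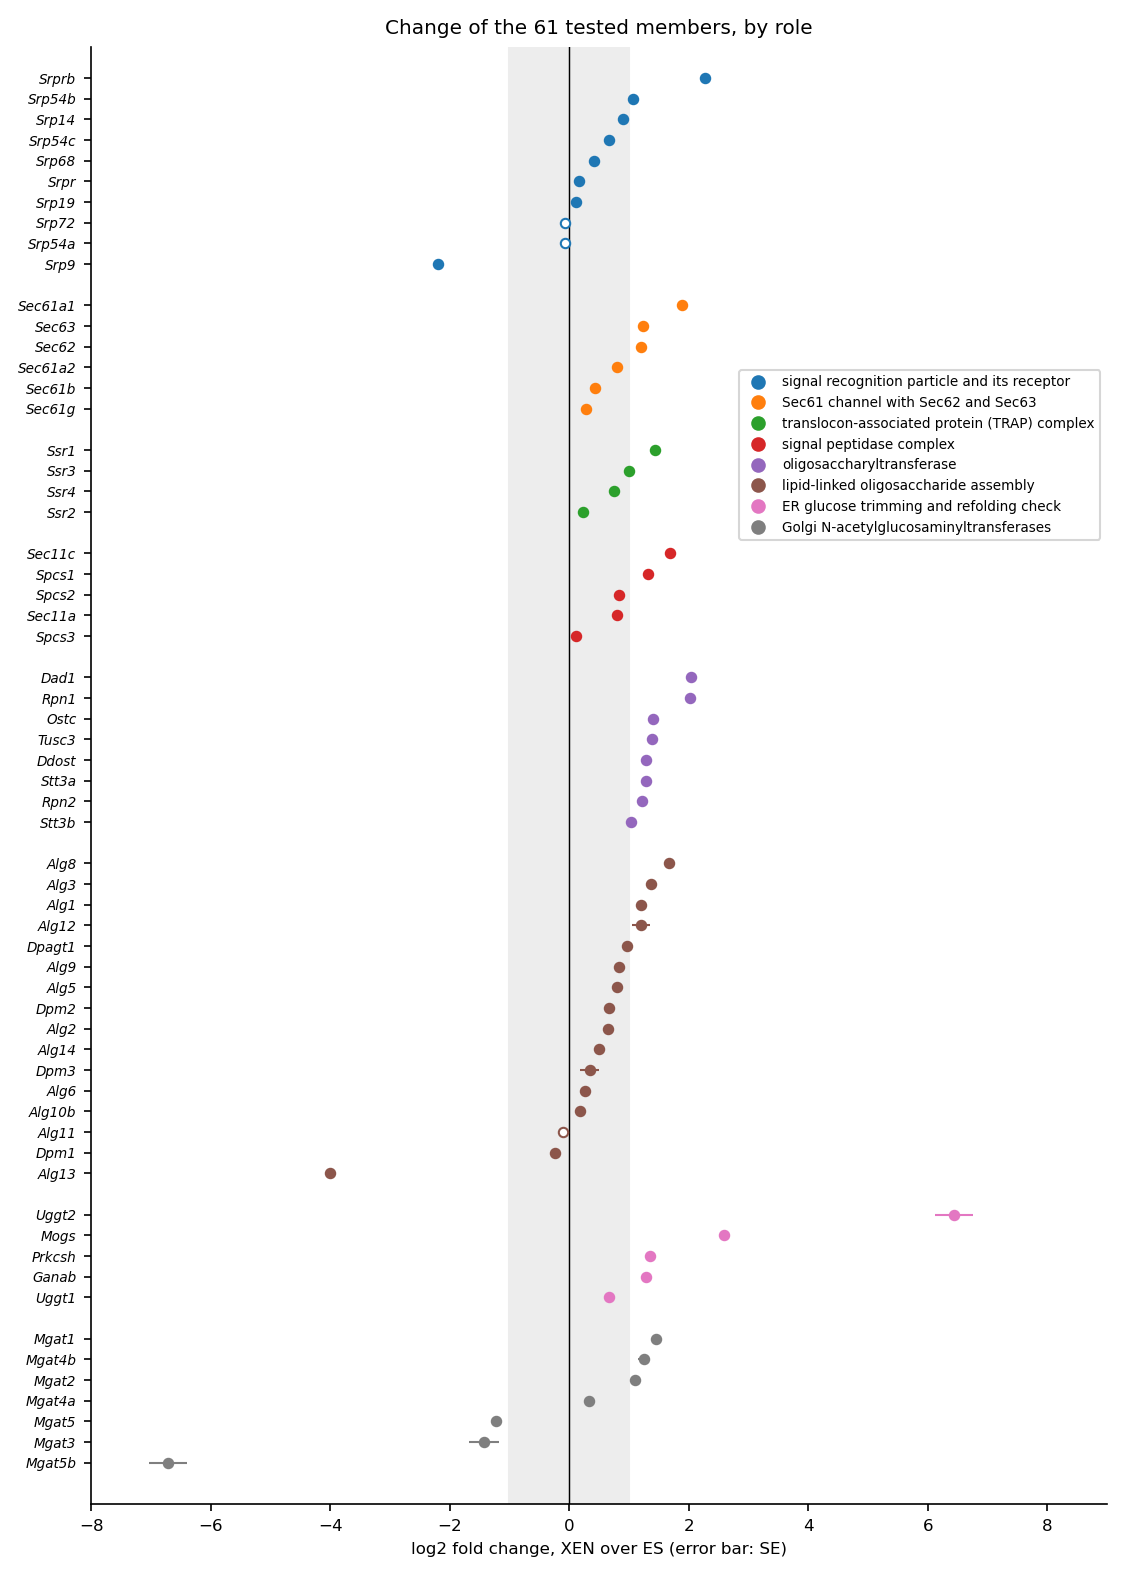
Log2 fold change, XEN over ES, of the 61 tested members on the x axis, with 1 row per member grouped by role; bars are standard errors, open circles did not pass an adjusted p of 0.05, and the grey band spans a change of 2-fold either way. All 8 oligosaccharyltransferase points lie to the right of the band, Uggt2 (6.44) and Mgat5b (-6.71) lie farthest out, and the Golgi enzymes fall on both sides.

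Expected counts of all members together made up 0.644% ± 0.00441 (SD, n = 3) of an ES library and 1.09% ± 0.0142 of a XEN library, a ratio of 1.70. The difference of 0.448 percentage points had p = 0.1 in the two-sided exact permutation test, the smallest that the 20 arrangements of 6 libraries allow. Of the 8 role groups, oligosaccharyltransferase had the largest share gain, from 0.146% ± 0.00154 to 0.362% ± 0.00940. The group of lipid-linked oligosaccharide enzymes was the only role group with a smaller share of counts in XEN, at 0.122% ± 0.00149 in ES and 0.0769% ± 0.00104 in XEN. Each role group had p = 0.1 in the exact permutation test.

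**Figure D2:**
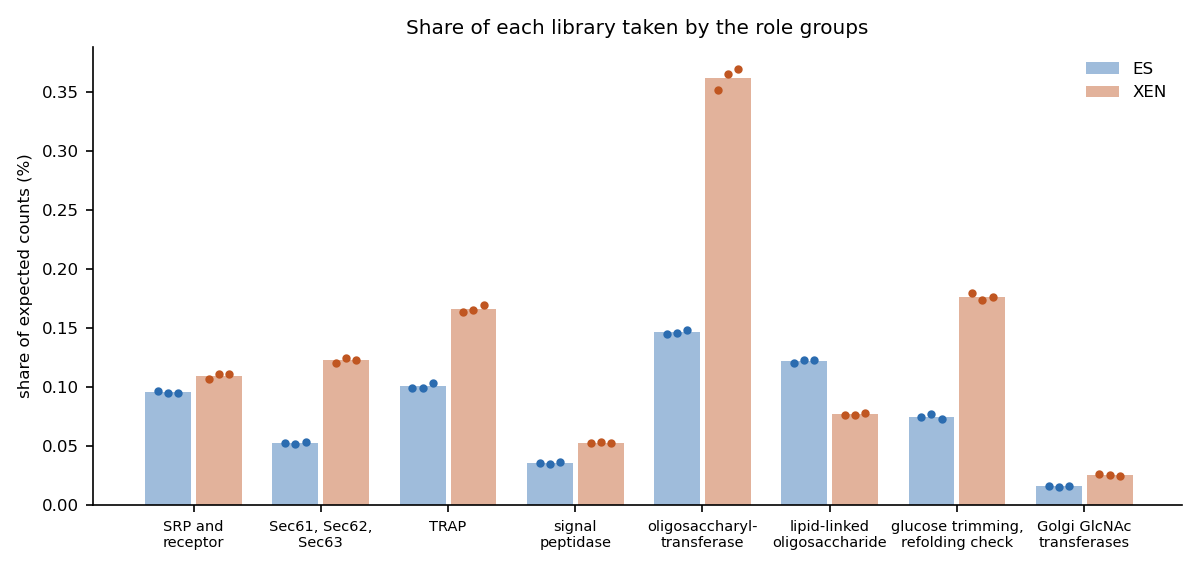
Share of each library's expected counts (y axis, percent) taken by the 8 role groups (x axis), with bars for the mean and 1 point per library, ES in blue and XEN in orange. Oligosaccharyltransferase rises from 0.146% to 0.362% and the lipid-linked oligosaccharide group goes from 0.122% to 0.0769%, with no overlap of the points.

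Promoters are shown because most members moved in the same direction, and several genes of this pathway are textbook targets of the unfolded protein response, whose factors ATF6 and XBP1 bind elements with an ACGTG core or the longer ER stress element. RefSeq windows from 250 bases before to 50 bases after a gene's start (GRCm38.p6) were matched by symbol for 51 of the 64 members, 58 windows in all. The windows printed are those of Srprb, Mogs and Dad1, which were higher by over 2-fold and hold ACGTG, of Alg12, which holds the ER stress element, and of Uggt2 and Alg13, which had the largest rise and the largest fall among ER members and hold neither. Each reads 5′ to 3′ on the gene's own strand, with every match on either strand to ACGTG, to CCAAT or to the ER stress element in capitals, so that a match on the other strand appears as the reverse complement.
Srprb: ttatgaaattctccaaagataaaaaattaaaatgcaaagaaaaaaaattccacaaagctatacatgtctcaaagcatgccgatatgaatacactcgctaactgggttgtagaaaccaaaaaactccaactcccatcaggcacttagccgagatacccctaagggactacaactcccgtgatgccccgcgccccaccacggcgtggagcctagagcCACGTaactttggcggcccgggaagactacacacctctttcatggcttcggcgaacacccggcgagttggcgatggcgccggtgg
Mogs: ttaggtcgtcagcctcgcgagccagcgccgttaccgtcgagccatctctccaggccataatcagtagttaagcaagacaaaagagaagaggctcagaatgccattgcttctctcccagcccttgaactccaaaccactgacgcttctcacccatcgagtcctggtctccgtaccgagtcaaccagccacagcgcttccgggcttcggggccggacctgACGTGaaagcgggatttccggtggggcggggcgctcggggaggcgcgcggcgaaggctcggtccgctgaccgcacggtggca
Dad1: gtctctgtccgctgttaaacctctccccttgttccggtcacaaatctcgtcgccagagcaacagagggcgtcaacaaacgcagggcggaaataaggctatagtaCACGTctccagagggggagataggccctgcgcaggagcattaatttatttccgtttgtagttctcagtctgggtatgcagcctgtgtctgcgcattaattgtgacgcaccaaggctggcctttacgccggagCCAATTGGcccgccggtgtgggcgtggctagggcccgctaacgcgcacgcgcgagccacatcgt
Alg12: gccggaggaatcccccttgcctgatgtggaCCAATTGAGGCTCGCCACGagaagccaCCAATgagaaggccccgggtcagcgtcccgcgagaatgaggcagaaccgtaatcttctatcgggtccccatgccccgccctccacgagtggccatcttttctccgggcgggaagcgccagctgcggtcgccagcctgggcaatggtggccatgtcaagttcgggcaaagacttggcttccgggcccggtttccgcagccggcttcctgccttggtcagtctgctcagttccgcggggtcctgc
Uggt2: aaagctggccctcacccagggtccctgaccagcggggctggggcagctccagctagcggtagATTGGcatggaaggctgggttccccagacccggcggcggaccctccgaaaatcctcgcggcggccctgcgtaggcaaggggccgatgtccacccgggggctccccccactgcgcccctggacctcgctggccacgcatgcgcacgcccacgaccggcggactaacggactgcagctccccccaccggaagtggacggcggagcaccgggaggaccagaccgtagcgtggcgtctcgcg
Alg13: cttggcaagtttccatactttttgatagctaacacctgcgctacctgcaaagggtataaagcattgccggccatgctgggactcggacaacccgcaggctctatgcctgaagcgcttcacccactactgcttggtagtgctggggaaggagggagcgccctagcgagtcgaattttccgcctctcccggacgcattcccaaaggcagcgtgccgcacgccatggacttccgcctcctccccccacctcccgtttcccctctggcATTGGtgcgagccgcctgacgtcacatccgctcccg

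The match to ACGTG starts 35 bases before the start in Srprb (chr9:103202016-103202315, minus strand), 32 bases before it in Mogs (chr6:83115256-83115555, plus strand) and 146 bases before it in Dad1 (chr14:54253880-54254179, minus strand). In Alg12 (chr15:88819269-88819568, minus strand) the ER stress element, CCAAT followed after 9 bases by CCACG, starts 220 bases before the start, and its CCAAT is counted as a CCAAT match too. The windows of Uggt2 (chr14:119099385-119099684, minus strand) and Alg13 (chrX:144317716-144318015, plus strand) hold 1 CCAAT match each. Searched on both strands, ACGTG was in 19 of the members' 58 windows (32.8%), in 25.2% of the windows of tested genes and in 19.6% of all 32851 windows of the table. Among windows of members higher by over 2-fold it was in 10 of 23 (43.5%), those of Srprb, Sec62, Sec63, Ssr1, Spcs1, Dad1, Alg1, Mogs, Prkcsh and Ganab, against 24.3% of the windows of all tested genes higher by over 2-fold. Among windows of the other members it was in 9 of 35 (25.7%), and 3 of these 9 belong to Srp54a, Srp54b and Srp54c, which are near-identical copies. The printed windows of Srprb, Mogs and Dad1 were picked for holding ACGTG. Those of Rpn1, Ddost and Stt3a, also higher by over 2-fold, hold none and are not printed. CCAAT was in 50% of the members' windows and 37.4% of all windows. The ER stress element was in 1 member's window (1.72%) and in 39 of all windows (0.119%). An ER stress element whose CCACG is followed by TG also counts under ACGTG. These are matches of letters, given as a description, and were not tested.

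The signal recognition particle and its receptor, which bring ribosomes with a nascent secretory chain to the ER, were mixed: 7 of 10 members were higher, 1 was lower and 2 did not pass, with a median log2 fold change of 0.29. Under scaling without composition factors or by the upper quartile, the counts were 5 higher and 3 lower, since Srp19 and Srpr then missed the threshold (Srp19 with its sign turned) and Srp54a and Srp72 then passed as lower. The call of Srp19 (0.12 ± 0.05, adjusted p = 0.0384, edgeR) was also lost without ES library A, B or C or XEN library B, where its adjusted p was 0.0550, 0.0648, 0.146 and 0.290. Srprb (gene 20818), the membrane-anchored beta subunit of the receptor, was at 33.6, 32.0 and 34.2 CPM in ES libraries A, B and C and at 152, 165 and 164 CPM in XEN libraries A, B and C. Every XEN library was over 4-fold above every ES library, and the log2 fold change was 2.27 ± 0.05 (SE, adjusted p = 1.54e-20, edgeR). Among the 10 genes, Srprb was the one whose rise exceeded 2-fold in that test. The alpha subunit Srpr, which binds the particle, went from 198 ± 2.77 to 221 ± 7.63 CPM (SD, n = 3), a log2 fold change of 0.16 ± 0.03.

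Srp72 (gene 66661), a protein of the particle's translocation domain and the group's most abundant member by mean FPKM over all 6 libraries (in XEN cells Srp14 and Srpr stood above it), was at 277, 271 and 279 CPM in ES and 261, 268 and 262 CPM in XEN libraries. The XEN libraries lay below the ES libraries, by a log2 fold change of -0.06 ± 0.02 that did not pass (adjusted p = 0.105, edgeR). It passed as lower with an adjusted p of 2.52e-05 under upper-quartile scaling. Srp68, its partner in the particle, rose by 0.42 ± 0.04 on the log2 scale.

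Srp54 is the subunit that binds the signal sequence, and mouse carries 3 near-identical copies between which reads can be split. The copy Srp54b (gene 665155) was at 35.4, 34.6 and 39.9 CPM in ES and 77.4, 73.0 and 79.8 CPM in XEN libraries, a log2 fold change of 1.07 ± 0.07 (adjusted p = 1.27e-13, edgeR). Srp54c rose by 0.67 ± 0.06 and Srp54a did not pass, at -0.07 ± 0.06. Summed as 1 gene, the copies went from 128 ± 0.575 to 204 ± 4.08 CPM, a log2 fold change of 0.67 ± 0.02 (adjusted p = 4.16e-13, edgeR). The sum was added after the values were seen.

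Srp9 (gene 27058), which with Srp14 forms the domain that slows elongation, was at 69.5, 65.2 and 72.1 CPM in ES and 15.7, 14.7 and 14.6 CPM in XEN libraries. As deposited it was lower in XEN, and the log2 fold change was -2.20 ± 0.05 (adjusted p = 6.67e-19, edgeR). The tables also hold an unnamed gene model of 755 bases, added by the authors, that carries the SRP9 orthology term. The protein named for it in the tables is the mouse signal recognition particle 9 kDa protein. That model was at 1.44 ± 0.152 CPM in ES and 66.4 ± 2.48 CPM in XEN libraries. The sum of both was 70.4 ± 3.51 CPM in ES and 81.4 ± 1.97 CPM in XEN, so the direction turned: log2 fold change 0.21 ± 0.05, adjusted p = 0.00025 (edgeR). With the sum in place of Srp9, 53 members were higher and 5 were lower. Whether the unnamed model is a second transcript of Srp9 or another locus was not tested. Srp14 itself rose from 35.9 ± 1.44 to 66.7 ± 2.41 CPM.

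**Figure D3:**
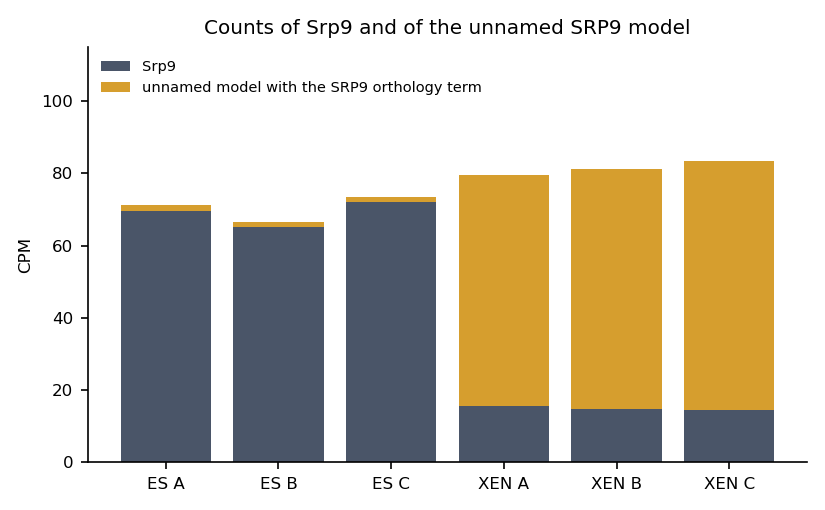
CPM (y axis) of Srp9 and of the unnamed model with the SRP9 orthology term, stacked for each of the 6 libraries (x axis). Srp9 falls from a mean of 68.9 to 15.0 CPM while the unnamed model goes from 1.44 to 66.4 CPM, and the stacked sums are 70.4 and 81.4 CPM on average.

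All 6 genes of the Sec61 channel group rose, with log2 fold changes from 0.28 to 1.90. Sec61a1 (gene 53421), the pore-forming alpha subunit, was at 175, 179.5 and 184 CPM in ES and 659, 682 and 665 CPM in XEN libraries. The groups did not overlap, and the log2 fold change was 1.90 ± 0.03 (adjusted p = 8.16e-21, edgeR). Its paralogue Sec61a2 (gene 57743) was at 39.2, 38.1 and 39.0 CPM in ES and 66.1, 67.7 and 68.2 CPM in XEN, a smaller rise of 0.80 ± 0.02. Between the paralogues, the log2 ratio of Sec61a1 to Sec61a2 (CPM + 1) rose from 2.18 ± 0.05 to 3.29 ± 0.03, without overlap of the libraries (p = 0.1, exact permutation test).

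The small subunits of the channel moved less. Sec61b (gene 66212) was at 52.2, 50.9 and 57.8 CPM in ES and 72.0, 74.3 and 72.0 CPM in XEN libraries, a log2 fold change of 0.44 ± 0.06 (adjusted p = 4.01e-08, edgeR). Sec61g rose by 0.28 ± 0.08, and missed the threshold under upper-quartile scaling (adjusted p = 0.0558). Per length, Sec61a1 stood at 64.0 ± 1.56 FPKM in ES cells, below Sec61b at 125 ± 8.29 and Sec61g at 72.5 ± 2.94. In XEN cells Sec61a1 stood above both, at 218 ± 4.90 FPKM against 157 ± 3.10 and 80.8 ± 7.25. Sec62 and Sec63, which help proteins that enter after translation and recruit the luminal chaperone BiP, rose together. Sec63 (gene 140740) was at 60.6, 62.9 and 62.7 CPM in ES and 153, 138 and 145 CPM in XEN libraries, a log2 fold change of 1.23 ± 0.05, and Sec62 rose by 1.19 ± 0.04. Both rises exceeded 2-fold in the edgeR test.

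The 4 TRAP subunits, which sit beside the channel and help certain signal sequences open it, all rose, with a median log2 fold change of 0.87. Ssr1 (gene 107513), the alpha subunit, was at 202, 199 and 208 CPM in ES and 555, 542 and 557 CPM in XEN libraries. Its log2 fold change of 1.44 ± 0.02 (adjusted p = 6.42e-19, edgeR) was the only one of the group shown to exceed 2-fold. Ssr3 (gene 67437), the gamma subunit, was at 324, 319.9 and 347 CPM in ES and 662, 645 and 677 CPM in XEN libraries, a rise (adjusted p = 1.45e-15, edgeR) that was not shown to exceed 2-fold. Ssr2 (gene 66256), the beta subunit, had the highest level per length of all 64 members in both cell types, 399 ± 7.92 FPKM in ES and 454 ± 18.8 FPKM in XEN cells. In CPM it was at 379, 387 and 393 in ES and 434, 459 and 468 in XEN libraries, which did not overlap. Its rise was the smallest of the group, 0.23 ± 0.04 (adjusted p = 1.43e-05, edgeR), and missed the threshold under upper-quartile scaling (adjusted p = 0.0578). An unnamed model with the orthology term of Ssr2 was at 19.0, 24.0 and 24.4 FPKM in ES and 13.5, 12.1 and 13.3 FPKM in XEN libraries. The sum of that model and Ssr2 was not tested. Ssr4, the delta subunit, rose by 0.75 ± 0.05.

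**Figure D4:**
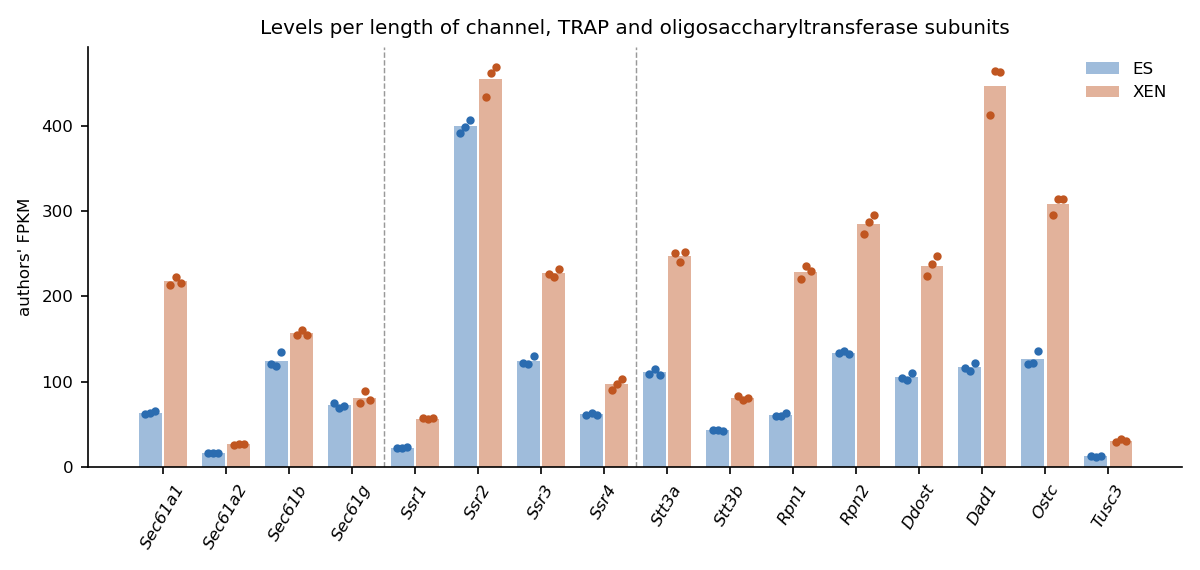
Level per length in the authors' FPKM (y axis) of the Sec61 channel subunits, the TRAP subunits and the oligosaccharyltransferase subunits (x axis, separated by dashed lines), with bars for the mean of 3 libraries and 1 point per library. Ssr2 is high in both cell types (399 and 454 FPKM), while Sec61a1 goes from 64.0 to 218 and Dad1 from 117 to 446 FPKM.

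All 5 genes of signal peptidase, which cuts off the signal sequence, passed as higher, with log2 fold changes from 0.11 to 1.68. The 2 alternative catalytic subunits differed in level. Sec11a (gene 56529) was at 50.1, 47.8 and 50.5 CPM in ES and 84.6, 87.3 and 86.1 CPM in XEN, a log2 fold change of 0.80 ± 0.03 (adjusted p = 2.47e-13, edgeR). Sec11c (gene 66286) was at 5.81, 5.27 and 5.998 CPM in ES and 17.0, 19.1 and 18.9 CPM in XEN, a log2 fold change of 1.68 ± 0.08 (adjusted p = 3.34e-13, edgeR). Sec11a remained the more abundant of the pair, at 81.7 ± 1.58 against 26.4 ± 1.71 FPKM in XEN cells. The log2 ratio of Sec11a to Sec11c fell from 2.92 ± 0.04 to 2.17 ± 0.07 (p = 0.1, exact permutation test).

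Spcs1 (gene 69019), a small accessory subunit, was at 47.3, 45.5 and 47.1 CPM in ES and 117, 119 and 112 CPM in XEN libraries. All XEN libraries lay above all ES libraries, and the log2 fold change was 1.31 ± 0.03 (adjusted p = 3.9e-17, edgeR). Spcs2 rose by 0.84 ± 0.02. Spcs3, which the active complex requires, rose by only 0.11 ± 0.04 (adjusted p = 0.016, edgeR), and missed the threshold without ES library A or B (adjusted p = 0.0948 and 0.0735). Its sign turned without passing under upper-quartile scaling (-0.03), without composition factors (-0.02) and on log2(FPKM + 1) (-0.02).

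Oligosaccharyltransferase, the enzyme that transfers the finished oligosaccharide to the protein, rose as a whole: all 8 members were higher, with log2 fold changes from 1.04 to 2.05, and 7 of the 8 exceeded 2-fold in the edgeR test. Rpn1 (gene 103963), ribophorin I, was at 204, 203 and 216 CPM in ES and 819.6, 869.8 and 851 CPM in XEN libraries, a log2 fold change of 2.03 ± 0.04 (adjusted p = 6.85e-21, edgeR). Dad1 (gene 13135), a small subunit first known as a defender against cell death, was at 68.1, 65.8 and 72.0 CPM in ES and 263, 293 and 294 CPM in XEN, a log2 fold change of 2.05 ± 0.07 (adjusted p = 1.49e-18, edgeR). In both genes the lowest XEN library was over 3-fold above the highest ES library. Per length, Dad1 moved from rank 7 among the 64 members in ES cells to rank 2 in XEN cells.

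The catalytic subunits define 2 forms of the enzyme, one that works with the channel during translation (STT3A) and one that also acts afterwards (STT3B). Stt3a (gene 16430) was at 271, 286 and 269.9 CPM in ES and 682, 649.5 and 683 CPM in XEN libraries, a log2 fold change of 1.29 ± 0.04 (adjusted p = 1.15e-17, edgeR). Stt3b (gene 68292) was at 171, 173 and 169.9 CPM in ES and 362, 342 and 352 CPM in XEN, a log2 fold change of 1.04 ± 0.02 (adjusted p = 2e-16, edgeR). Both rose, and the log2 ratio of Stt3a to Stt3b went from 0.68 ± 0.04 to 0.93 ± 0.02 without overlap of the libraries (p = 0.1, exact permutation test). Stt3b was the member whose rise was not shown to exceed 2-fold. Per length Stt3a was above Stt3b in both, at 111 ± 3.78 against 43.4 ± 0.430 FPKM in ES and 248 ± 6.10 against 81.4 ± 1.98 FPKM in XEN cells.

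Tusc3 (gene 80286) and Magt1 are alternative oxidoreductase subunits of the STT3B form, of which only Tusc3 falls under the symbol rule. Tusc3 was at 25.9, 22.36 and 25.5 CPM in ES and 61.5, 66.6 and 63.7 CPM in XEN libraries, a log2 fold change of 1.38 ± 0.07 (adjusted p = 2.15e-15, edgeR). The log2 ratio of Tusc3 to Magt1 in CPM went from -1.40 ± 0.09 to -1.08 ± 0.13 (p = 0.1, exact permutation test). Per length, Tusc3 stood below Magt1 in ES cells, at 13.0 ± 0.948 against 16.01 ± 0.329 FPKM, and in XEN cells the 2 differed by less than their SDs, at 31.1 ± 1.71 against 30.2 ± 1.43 FPKM. The structural subunits Ostc, Ddost and Rpn2 rose by 1.41 ± 0.06, 1.29 ± 0.05 and 1.22 ± 0.04. The 4 further subunits of the enzyme outside the symbol rule (Magt1, Ost4, Tmem258 and Krtcap2) rose too, by 0.94 to 1.06. Ost4, a very short subunit that holds the catalytic and structural parts together, had the highest of these at 1.06 ± 0.09, and Magt1 rose by 1.04 ± 0.05.

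The enzymes that build the lipid-linked oligosaccharide on dolichol were mostly higher, with 13 of 16 higher, 2 lower and 1 not passing, and a median log2 fold change of 0.66. Alg8 (gene 381903), which adds a glucose late in the assembly, was at 9.77, 9.85 and 9.82 CPM in ES and 29.1, 30.8 and 33.4 CPM in XEN libraries. The groups lay about 3-fold apart, and the log2 fold change was 1.66 ± 0.06 (adjusted p = 6.41e-15, edgeR). Alg3 (gene 208624), the first mannosyltransferase on the luminal side, was at 35.6, 35.0 and 35.7 CPM in ES and 86.0, 89.6 and 100.3 CPM in XEN, a log2 fold change of 1.38 ± 0.07 (adjusted p = 2.23e-15, edgeR). Alg1 and Alg12, which also add mannose, rose by 1.205 ± 0.06 and 1.205 ± 0.15, and both exceeded 2-fold in the edgeR test. Dpagt1, which starts the oligosaccharide and is the target of tunicamycin, rose by 0.96 ± 0.03.

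Alg13 (gene 67574), the cytosolic part of the enzyme that adds the next N-acetylglucosamine, went the other way. It was at 609.9, 633 and 625 CPM in ES libraries and at 41.0, 38.5 and 37.6 CPM in XEN libraries. Every ES library was over 14-fold above every XEN library, and the log2 fold change was -3.996 ± 0.04 (adjusted p = 4.66e-25, edgeR). Per length it ranked 2 of 64 in ES cells, at 162 ± 2.59 FPKM, and 55 in XEN cells, at 10.2 ± 0.523 FPKM. Alg14, the membrane subunit that anchors Alg13 and completes the enzyme, was at 9.32 ± 0.174 FPKM in ES and 12.1 ± 0.301 FPKM in XEN cells. The group's smaller share of counts rested on Alg13, since the other 15 genes had 0.0569% ± 0.000751 of the counts in ES and 0.0732% ± 0.00116 in XEN (p = 0.1, exact permutation test). In summed FPKM the whole group's share was 0.0746% ± 0.000379 in ES and 0.0757% ± 0.00169 in XEN (p = 0.4, exact permutation test).

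Dpm1, Dpm2 and Dpm3 form the synthase of dolichol phosphate mannose, the mannose donor inside the ER, and did not move together. Dpm1 (gene 13480), the catalytic subunit, was at 143, 138 and 142 CPM in ES and 124, 118 and 117 CPM in XEN libraries, a log2 fold change of -0.23 ± 0.03 with no overlap (adjusted p = 1.49e-05, edgeR). Dpm2 rose by 0.67 ± 0.06 and Dpm3 by 0.34 ± 0.16 (adjusted p = 0.0102, edgeR), and Dpm3 missed the threshold without ES library B (adjusted p = 0.0823), under upper-quartile scaling (0.127), without composition factors (0.0998) and on log2(FPKM + 1) (0.0982). The smallest rises of the group were those of the glucosyltransferases Alg6 (0.27 ± 0.04) and Alg10b (0.18 ± 0.06). Both missed the threshold under upper-quartile scaling, with adjusted p of 0.0639 and 0.448. Alg11, a cytosolic mannosyltransferase, had a log2 fold change of -0.11 ± 0.05 and passed as lower under that scaling (-0.25, adjusted p = 6.76e-05, edgeR). It also passed as lower in edgeR under RLE scaling (adjusted p = 0.0350), without composition factors (0.000129) and with the filter of at least 1 CPM (0.0266). The same held without ES library A or XEN library A (adjusted p = 0.03445 and 0.0163, edgeR) and in limma-trend on log2(FPKM + 1) (0.00268).

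All 5 genes of glucose trimming and of the refolding check rose, with a median log2 fold change of 1.36, and 4 exceeded 2-fold in the edgeR test. Mogs (gene 57377), glucosidase I, which removes the outermost glucose, was at 45.4, 42.8 and 41.5 CPM in ES and 254, 264 and 262 CPM in XEN libraries. The lowest XEN library was over 5-fold above the highest ES library, and the log2 fold change was 2.59 ± 0.04 (adjusted p = 3.22e-22, edgeR). Glucosidase II, which removes the next glucoses, has a catalytic subunit Ganab and a regulatory subunit Prkcsh, and both rose to a like extent. Ganab (gene 14376) was at 330.3, 337 and 321 CPM in ES and 832, 781 and 809 CPM in XEN libraries, a log2 fold change of 1.29 ± 0.03 (adjusted p = 8.66e-18, edgeR), and Prkcsh rose by 1.36 ± 0.03.

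UGGT enzymes put a glucose back on misfolded glycoproteins so that they bind calnexin again. Uggt2 (gene 66435) was at 0.645, 1.35 and 0.695 CPM in ES and 87.5, 73.9 and 74.7 CPM in XEN libraries, 61 and 4953 counts in all. It had the largest rise of any member, a log2 fold change of 6.44 ± 0.32 (adjusted p = 3.15e-11, edgeR), and its ES level rests on few counts. Uggt1 (gene 320011) was at 174, 188 and 171 CPM in ES and 314, 261 and 275 CPM in XEN, a log2 fold change of 0.67 ± 0.09 (adjusted p = 4.92e-06, edgeR). Uggt1 stayed the more abundant of the pair in XEN cells, at 30.3 ± 2.81 against 11.7 ± 1.09 FPKM. With 1 CPM added to each level, their log2 ratio, Uggt1 to Uggt2, fell from 6.58 ± 0.22 to 1.83 ± 0.03 (p = 0.1, exact permutation test). Since Uggt2 in ES cells is near that added 1 CPM, the size of this fall depends on it: the fall was 5.70 with 0.1 CPM added and 3.17 with 5 CPM added. In ES cells Uggt2 stood at 0.147 ± 0.0635 FPKM and Uggt1 at 20.8 ± 1.07 FPKM.

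**Figure D5:**
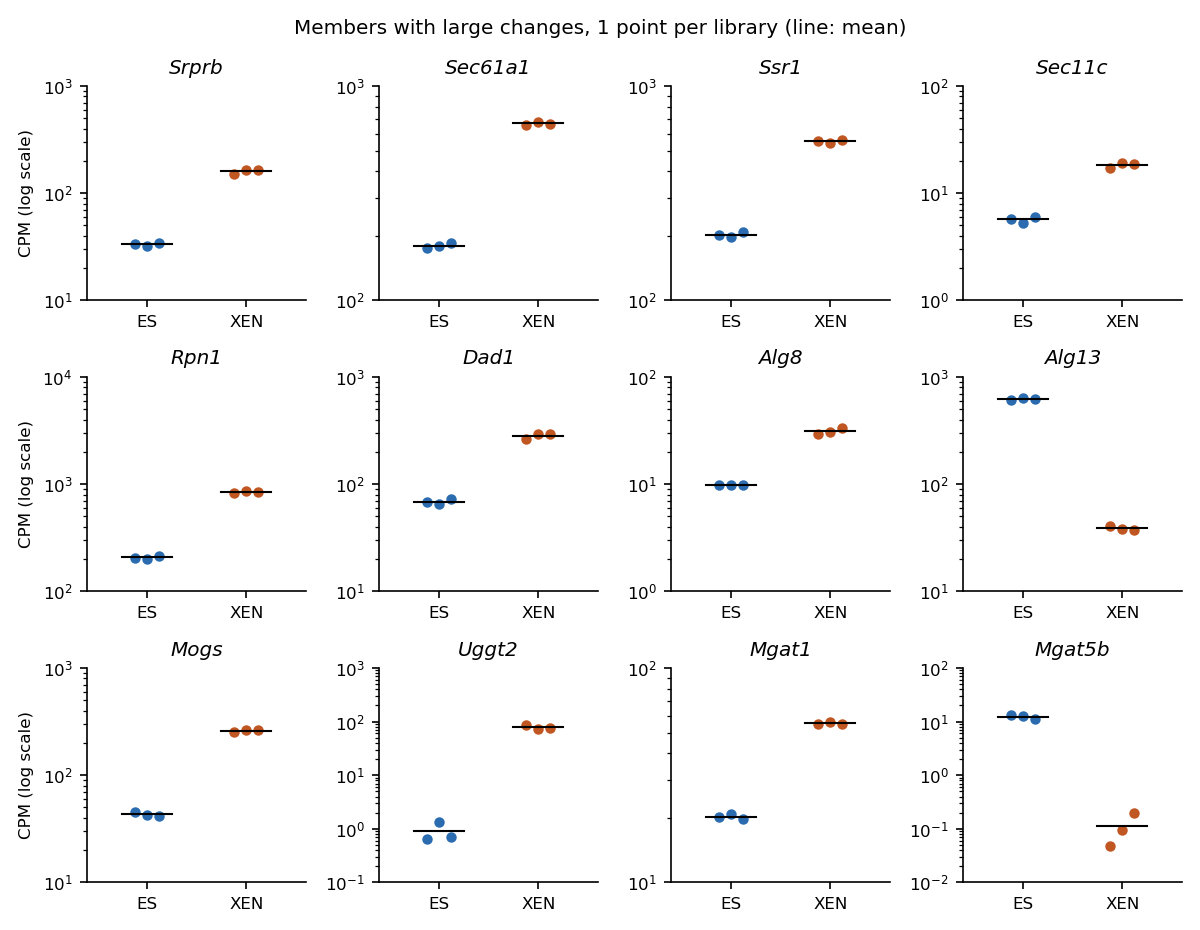
CPM on a log scale (y axis) of 12 members in the 3 ES libraries (blue) and 3 XEN libraries (orange); each point is a library and the line is the mean. The points of a group lie close together beside the gap between groups, also for Uggt2 and Mgat5b, whose low group lies near or below 1 CPM; Alg13 and Mgat5b are the genes shown that fall.

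The Golgi N-acetylglucosaminyltransferases, which start and branch complex glycans, went both ways. Of 10 genes 7 passed the filter of the main test, 4 were higher (57.1%) and 3 were lower (42.9%). These shares lie near those of all tested genes, 42% and 46.7%, and nothing is read from the split. The first steps of the route rose. Mgat1 (gene 17308), which opens the way to hybrid and complex glycans, was at 20.2, 20.8 and 19.7 CPM in ES and 54.9, 55.7 and 55.1 CPM in XEN libraries, a log2 fold change of 1.45 ± 0.02 (adjusted p = 1.79e-16, edgeR). Mgat2 (gene 217664), which starts the next antenna, was at 60.4, 58.1 and 63.0 CPM in ES and 133, 127 and 129 CPM in XEN, a log2 fold change of 1.10 ± 0.04 (adjusted p = 1.02e-15, edgeR). Neither gene's groups overlapped, and both rises exceeded 2-fold in the edgeR test.

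Mgat4a and Mgat4b add a further antenna on the arm that Mgat1 began. Mgat4b (gene 103534) was at 24.9, 22.2 and 23.7 CPM in ES and 58.8, 59.8 and 50 CPM in XEN libraries, a log2 fold change of 1.25 ± 0.09 (adjusted p = 1.05e-11, edgeR). Mgat4a (gene 269181) was at 11.9, 11.99 and 12.5 CPM in ES and 16.5, 14.3 and 15.1 CPM in XEN, a log2 fold change of 0.33 ± 0.06 (adjusted p = 0.000862, edgeR). The log2 ratio of Mgat4a to Mgat4b went from -0.91 ± 0.09 to -1.81 ± 0.17 (p = 0.1, exact permutation test). Their relatives Mgat4c, Mgat4d and Mgat4e had 26, 4 and 22 counts over the ES libraries and none in XEN libraries. They did not pass the filter for low counts of the main test. Without that filter, 4 genes of the Golgi group were higher and 5 were lower (edgeR). Against a floor of 3 counts over the XEN libraries, Mgat4c was 8.83-fold lower and Mgat4e 7.48-fold lower. These folds use raw library totals without TMM factors and leave out the counting error of the ES counts, so they are not strict lower bounds. Mgat4d is given no fold, since its 4 counts lay in ES libraries A and B and its groups overlapped.

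The other tested Golgi genes, Mgat5, Mgat3 and Mgat5b, were lower in XEN cells, and a link to the order of the steps was not tested. Mgat5 (gene 107895), which makes the beta-1,6 branch, was at 12.6, 12.7 and 12.5 CPM in ES and 5.499, 5.27 and 5.41 CPM in XEN libraries, a log2 fold change of -1.22 ± 0.02 (adjusted p = 1.6e-10, edgeR). Mgat3 (gene 17309), which adds the bisecting residue, was at 8.07, 9.50 and 9.91 CPM in ES and 4.51, 3.08 and 2.58 CPM in XEN, a log2 fold change of -1.43 ± 0.25 (adjusted p = 3.17e-07, edgeR). Mgat5b (gene 268510), a relative of Mgat5 known from brain, was at 13.0, 12.7 and 11.1 CPM in ES and 0.0470, 0.0932 and 0.199 CPM in XEN libraries, 830 and 7 counts in all. Its fall was the largest of any member, a log2 fold change of -6.71 ± 0.32 (adjusted p = 1.01e-16, edgeR), and rests on very few XEN counts. Without XEN library C, which holds 4 of the 7 counts, the log2 fold change of Mgat5b was -7.34. The log2 ratio of Mgat5 to Mgat5b was higher in every XEN library than in every ES library (p = 0.1, exact permutation test), but its size is set by the amount added to each level, with a rise of 2.49 for 1 CPM and 4.71 for 0.1 CPM. All 3 falls exceeded 2-fold in the edgeR test.

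The other genes of the route, taken from lists of 61 genes outside the symbol rule that could all be tested, were mostly higher as well: 45 were higher, 11 were lower and 5 did not pass. The shares were 73.8% higher and 18.0% lower, against 42% and 46.7% of all tested genes. Of 17 genes that supply dolichol and sugar donors, 11 were higher (64.7%) and 4 were lower (23.5%). Gfpt1, the first enzyme of the hexosamine pathway, rose by 2.74 ± 0.08, and Pmm2, the phosphomannomutase of mannose donor synthesis, rose by 1.74 ± 0.04, while its paralogue Pmm1 fell by 1.33 ± 0.05 on the log2 scale and Mpdu1, needed for use of dolichol-linked mannose, fell by 0.50 ± 0.03. Of 22 genes for other routes and helpers of membrane insertion, 15 were higher (68.2%) and 5 were lower (22.7%). The TRAM protein gene Tram2 rose by 2.73 ± 0.12 and Emc7, of the ER membrane protein complex, by 2.55 ± 0.03, while Emc8 of the same complex and Wrb, a receptor for tail-anchored proteins, had log2 fold changes of -0.50 ± 0.02 and -0.40 ± 0.06. Of 18 genes of mannose trimming and later Golgi steps, 15 were higher (83.3%) and 2 were lower (11.1%). The sialyltransferase St3gal6 rose by 6.43 ± 0.05, the mannosidase Man1a by 4.57 ± 0.19, and Man2a1, the Golgi mannosidase II, had -0.20 ± 0.08. The other lower gene, the sialyltransferase St6gal1, went from 3.90 ± 0.0462 to 0.0935 ± 0.0932 CPM (-5.27 ± 0.47); it lay under the 5 CPM set for naming and was chosen after its values were seen. The adjusted p of these genes ran from 3.67e-22 to 0.00387 (edgeR).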

How the data were processed

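Total RNA of 3 ES and 3 XEN libraries was sequenced on the BGISEQ-500 platform, per the labels' protocols, and groups and library letters came from the sample titles. The submitters' processing notes name Bowtie2, RSEM, DESeq2 and the mm9 build, without roles; versions are not given in the sources used here. Per the file headers, the authors deposited 1 table per library with an expected count, an FPKM value and a gene length for each gene. The deposited expected counts are estimates that need not be whole and were rounded. The authors' FPKM values served for levels per length, for shares of summed FPKM and for an alternative test on log2(FPKM + 1). The main test used the counts. A gene not listed in a table was taken as 0. Of the 64 members, 18 hold a transcript added by the authors, and 957 unnamed models stayed separate genes.

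Genes were kept by filterByExpr (13581), scaled by TMM and tested by the edgeR 4.0.16 quasi-likelihood F test in R 4.3.3 with group as the only term, Benjamini-Hochberg adjustment at 0.05, and by glmTreat against 2-fold. The value that edgeR names the common coefficient of biological variation came to 4.75%, between libraries that could be technical replicates. Standard errors of log2 fold changes come from log2 CPM with a prior count of 2. Shares and pair ratios (7 fixed pairs, CPM + 1) were compared by exact permutation, unadjusted, since none can go below 0.1. Floors cover the counting error of the XEN counts only. No 2 libraries of a group were alike within sampling noise (chi-square over its degrees of freedom from 2.44 to 7.19). The pipeline was tested on simulated data. The alternatives tried were scaling by RLE, by the upper quartile and without composition factors; other filters; a replicate block; leaving out each library; DESeq2 1.42.0; limma 3.58.1 (voom, and trend on log2(FPKM + 1)); and, added after the values were seen, summed gene copies and shares without some members.

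Members, lists and tests were chosen with earlier results of these data known. Values of each library are given for 34 members named by rule: in each role group the called members that changed most (up to 2 per direction) with a mean of at least 5 CPM, the most abundant by mean FPKM, and the members of the pairs; of each related list, up to 2 genes per direction likewise. Other members were named to complete a complex. Genome positions are given only for RefSeq promoter windows, whose build differs from mm9.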

Additional observations from a re-analysis of the deposited data

How the results depend on the processing

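Over all alternatives to the edgeR test, 44 to 53 members were higher and 5 to 9 lower in XEN cells. Over the other scalings, the block, the left-out libraries and the summed Srp9, where the 2-fold test was run, 20 to 26 were higher and 4 or 5 lower by over 2-fold. Upper-quartile scaling gave 44 higher and 9 lower, and moved the median of all tested genes from -0.07 to -0.21 on the log2 scale, and that of the members from 0.84 to 0.69. Of the log2 fold changes of the 34 named members under 16 settings, 538 kept direction and side of the threshold, 4 (all of Srp72) newly passed it, 1 (Ssr2 under upper-quartile scaling) lost it, and Srp9 turned to 0.21 with its unnamed copy. The rule named members partly for large changes, so this tally does not stand for all members. Calls changed more often among members outside the 34, such as Srp19, Spcs3, Alg11 and Dpm3. The difference in the members' share of counts was 0.487 percentage points in summed FPKM, 0.510 without Alg13 and 0.201 without members above 300 CPM. The ratios of the shares, XEN over ES, were 1.89, 1.88 and 1.62 in that order, against 1.70 for the counts of all members. With a replicate block, 52 members were higher and 6 lower. Same-letter libraries correlated by 0.0327, 0.00761 and 0.0199 in their deviations from group means. Each library correlated best with its own letter, though all of these values are small. The main test did not use the letters, and whether they mark pairs is not settled by these values. Leaving out a library gave 49 to 52 higher and 6 or 7 lower members. Srp19 lost its call in 10 settings, among them DESeq2 (adjusted p = 0.144). Differences in genes under about 1 CPM, such as Uggt2 in ES and Mgat5b in XEN cells, rest on few counts; on log2(FPKM + 1), which understates the change of low genes, these fold changes were 3.47 and -1.96.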

Other observations

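The balance within 3 partner pairs, chosen after their values were seen, is given as a description. The log2 ratio of Srprb to Srpr, the subunits of the receptor of the signal recognition particle, was -2.54 ± 0.06 (SD, n = 3) in ES and -0.46 ± 0.06 in XEN libraries. That of Sec61a1 to Sec61b was 1.73 ± 0.07 in ES and 3.18 ± 0.01 in XEN libraries. That of Alg13 to Alg14 was 6.25 ± 0.02 in ES and 1.84 ± 0.09 in XEN libraries. All are ratios of CPM + 1, and in none did the groups overlap.

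Of the 24 members with a mean above 100 CPM, 21 were higher, 2 were lower and 1 did not pass in the edgeR test, with a median log2 fold change of 1.21. Of the 37 tested members under 100 CPM, 31 were higher (83.8%) and 4 were lower (10.8%), with a median of 0.80. Among all tested genes above 100 CPM, 49.8% were higher and 40.6% lower. For tested genes at any level these shares were 42% and 46.7%, and none was taken for genes under 100 CPM alone.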
